A study of Homo sapiens with 6 samples.

Results

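Keratins are the intermediate filament proteins of epithelial cells, and 8 keratin genes, picked by symbol from the 63241 genes of the deposited table, were followed in HT-29 cells. They are *KRT7*, *KRT8* and *KRT80*, which encode type II keratins, and *KRT17*, *KRT18*, *KRT19*, *KRT20* and *KRT23*, which encode type I keratins. All 8 were found, each as a single gene, and all 8 passed the limit on low values (at least 1 TPM in at least 3 libraries). HT-29 is a human colorectal adenocarcinoma line, labelled wild type and enterocyte. RNA-seq covered 3 Control libraries, from cells given buffer, and 3 libraries labelled A904, from cells given 0.5 μM of the recombinant *Akkermansia muciniphila* outer membrane protein Amuc_0904, with 72 h of stimulation. The recombinant protein carried His and FLAG tags and was made in *E. coli*. Neither the labels nor the methods say whether replicates were separate cultures, so p values measure the spread between these libraries, which may be technical.

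A keratin filament is built from pairs of one type I and one type II chain, and an unpaired chain is broken down. That breakdown acts on protein, while only RNA was measured here. *KRT8* and *KRT18* form the basic pair of simple epithelia, the single-layered linings of gut, liver and glands. *KRT19* is added in most of these tissues, and *KRT20* marks differentiated cells of the gut lining. Filaments are anchored to desmosomes and hemidesmosomes by plakin proteins, and they protect epithelial cells against mechanical and other stress.

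The members lie in the 2 keratin gene clusters, with positions given here from GENCODE release 29 on GRCh38. *KRT80*, *KRT7*, *KRT8* and *KRT18* lie on chromosome 12, from 52168996 at the near end of *KRT80* to 52952901 at the far end of *KRT18*, and *KRT18* is thus a type I gene in the type II cluster. *KRT20*, *KRT23*, *KRT19* and *KRT17* lie on chromosome 17, from 40875941 to 41624842. *KRT8* and *KRT18* are neighbors on opposite strands, and 525 exonic bases of one overlap exons of the other in this annotation. Of 1413 stretches of 150 bases, the read length, in the *KRT18* transcript, 155 also occur in *KRT8* transcripts on the opposite strand, so that reads from the overlap cannot be assigned to one gene unless strand was used in counting, which is not stated. *KRT7* shares 4.80% of its 150-base stretches with its antisense transcript *KRT7-AS*, which had at most 0.41 TPM. In the single transcript compared for each of the other 6 members, no shared 150-base stretch was found. The opposite strand was searched only for genes whose symbol starts with KRT, so sharing with other antisense genes could not be found. In this annotation 186 exonic bases of *KRT23* overlap exons of *AC004231.1* on the opposite strand. With stretches of 75 bases, 25.5% were shared for *KRT18* (15 other genes), 17.8% for *KRT8* (12 genes), 9.05% for *KRT7* (1 gene) and 4.57% for *KRT17* (4 genes). None was found for the remaining 4 members, under the same limit on the opposite strand. Of 134 annotated pseudogenes of *KRT8*, *KRT17*, *KRT18* and *KRT19*, 74 were listed at 0 in the 6 libraries, and the 134 together held 8.07 to 10.02 TPM per library. *KRT8P12* was the highest of them, with 4.65, 3.51 and 5.54 TPM in the controls and 4.25, 4.98 and 4.76 TPM with Amuc_0904. *KRT18P49* and *KRT18P48* followed with means of 0.545 and 0.507 TPM over the 6 libraries.

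Among the libraries, Amuc_0904 replicate 1 stood apart from the other 2 of its group. On the first principal component over the 14333 tested genes it lay at −4.79, with the controls between −13.0 and −12.4 and Amuc_0904 replicates 2 and 3 at 20.4 and 22.8. Where that library decides the call of a named gene, the value without it is also given. The mitochondrial share of TPM ranged from 12.8% to 13.5% over the controls, with 13.0% for Amuc_0904 replicate 1 but 10.6% and 11.1% for replicates 2 and 3, which leaves a larger share for other genes in those 2 libraries. The table gives TPM without counts, so that the depth behind a value is unknown and no counting interval can be given. The label was checked against fixed markers. *EPCAM*, *LGALS4* and *VIL1* had at least 545.8, 777.4 and 59.0 TPM in the 6 libraries, while *CDH17* had at most 0.68, *CDX1* at most 1.36 and *CDX2* at most 1.71 TPM, so that these last 3 colon markers were near absent. Of 15 markers of fibroblasts, leukocytes and endothelium, 11 had less than 1 TPM in all libraries, with *PTPRC* at no more than 0.02 TPM and *COL1A2*, *CD3E* and *CDH5* listed at 0. The summed level of the 10 colon epithelium markers was 1795 to 1797 TPM in the controls and 1834 to 1896 TPM with Amuc_0904, but its members moved apart. Of the 8 tested, 0 passed over the 6 libraries, while 2 rose and 3 fell without Amuc_0904 replicate 1. Of all tested genes, 18.8% passed without that library. By limma in that fit, *LGALS4* (log2 fold change 0.14, adjusted p = 0.00915 against 0.273 with all libraries) and *PHGR1* (1.02, 0.00210 against 0.136) rose. The epithelial adhesion genes *EPCAM* (log2 fold change −0.12, adjusted p = 0.0185 against 0.652), *CDH1* (−0.30, 0.0111 against 0.438) and *CLDN7* (−0.38, 0.00183 against 0.273) fell. These 5 were named after their values were seen. For 6 fibroblast markers it was 2.03 to 2.42 and 1.75 to 2.92 TPM, for 5 leukocyte markers 4.67 to 4.90 and 2.00 to 2.85 TPM, mostly *CD14* (adjusted p = 0.150 by limma over 6 libraries and 0.0147 without Amuc_0904 replicate 1), and for 4 endothelium markers 0.63 to 1.52 and 0.92 to 1.5 TPM. Their part in the keratin values was not tested.

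Keratin levels in control cells spanned 3 orders of magnitude, and *KRT8*, *KRT18* and *KRT19* together held 97.0% of the summed TPM of the 8 genes. TPM is scaled by transcript length, so levels of different genes can be set side by side. The mean of *KRT8* was 2726 ± 53.1 TPM (SD, n = 3) without treatment, and the gene ranked 51st to 53rd of all genes. *KRT18* followed with 1966 ± 18.1 TPM, *KRT19* with 801.3 ± 15.4 TPM and *KRT20* with 127.0 ± 3.01 TPM. *KRT80* had 26.5 ± 1.08 TPM, *KRT23* 7.95 ± 1.0 TPM, *KRT7* 6.49 ± 2.15 TPM and *KRT17* 1.55 ± 0.354 TPM. Neighbors in this order did not overlap between libraries except *KRT23* and *KRT7*, whose control values ran from 6.79 to 8.54 and from 4.62 to 8.84 TPM. The 4 most abundant members varied little between controls, with coefficients of variation of 0.921% to 2.37%, against a median of 6.27% over the tested genes, and *KRT7* and *KRT17* varied most, with 33.2% and 22.9%. That median covers genes of all levels, and the abundant markers *LGALS4* and *EPCAM* had similarly low values in the controls, 0.795% and 1.57%.

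**Figure D1:**
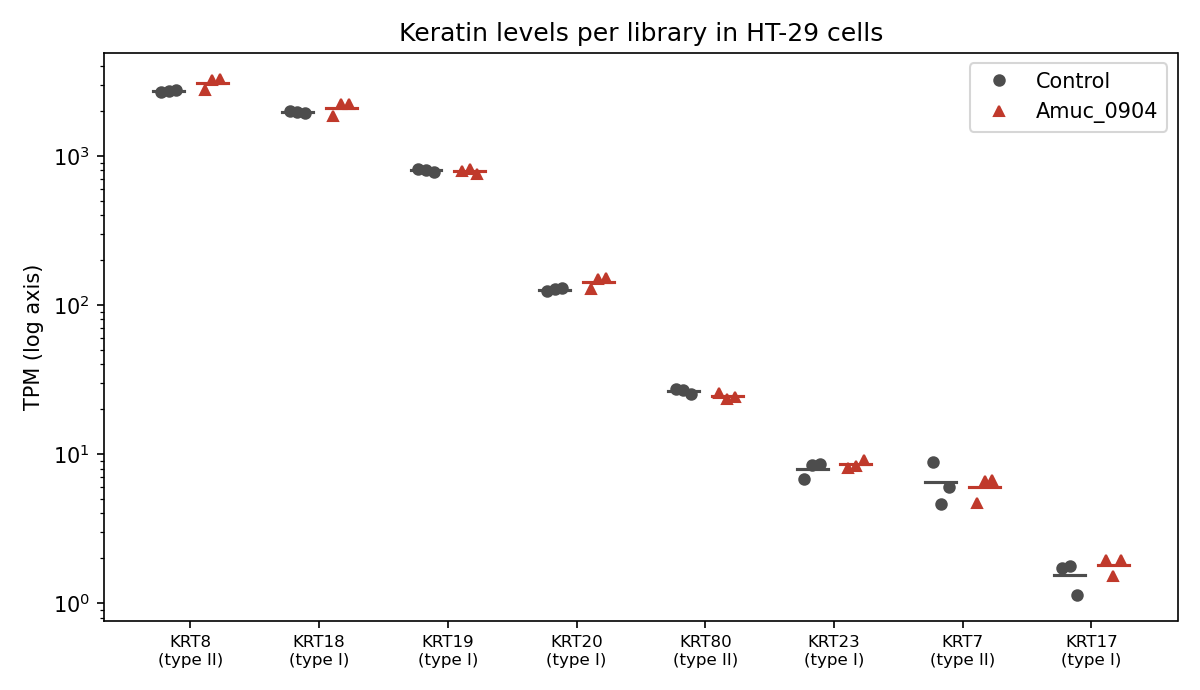
TPM (log axis) of 8 keratin genes in HT-29 cells, with a point per library (circles, Control; triangles, Amuc_0904) and the mean of 3 libraries as a bar. Levels run from 2726 TPM for *KRT8* to 1.55 TPM for *KRT17* in control cells, and the 2 groups lie close together for each gene.

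The first question was whether Amuc_0904 shifted any keratin. By limma on log2(TPM + 1), with Benjamini-Hochberg adjustment over the tested genes, 0 of the 8 had an adjusted p below 0.05 in either direction, where 0.237% of all tested genes passed. At an unadjusted p under 0.05, 1 of the 8, *KRT8*, was higher and 0 were lower, against 15.8% of all tested genes in either direction. In 0 of the 8 were the groups free of overlap, against 21.0% of all tested genes. The means of 5 members were higher and of 3 lower, with a median log2 fold change of 0.10 over the 8 and 0.0015 over all tested genes.

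The basic pair of simple epithelia, *KRT8* and *KRT18*, was higher in Amuc_0904 replicates 2 and 3 and not in replicate 1. *KRT8* had 2682, 2710 and 2785 TPM in the controls and 2766, 3227 and 3291 TPM in Amuc_0904 replicates 1, 2 and 3. Replicate 1 lay within the control range, and replicates 2 and 3 lay above it, on average 19.6% above the control mean. Over all 6 libraries the log2 fold change of *KRT8* was 0.18 (standard error 0.07, 95% interval 0.01 to 0.34, adjusted p = 0.293 from limma). *KRT18* had 1987, 1959 and 1953 TPM in the controls and 1854, 2233 and 2236 TPM with Amuc_0904. Here replicate 1 differed from the control mean by −5.70%, lying under each control, and replicates 2 and 3 lay on average 13.6% above it (log2 fold change 0.09, 95% interval −0.08 to 0.27, adjusted p = 0.574).

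*KRT19*, the smallest keratin and a type I partner of *KRT8*, had similar values throughout. It had 812.7, 807.6 and 783.7 TPM in the controls and 794.7, 817.2 and 754.2 TPM with Amuc_0904. The groups overlapped, and the log2 fold change was −0.024 (95% interval −0.13 to 0.09, adjusted p = 0.838). With quantile normalization it was −0.09, still short of the threshold.

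*KRT20*, the type I keratin of differentiated gut epithelium, followed the pattern of *KRT8* library by library. It had 123.7, 127.9 and 129.5 TPM in the controls and 127.4, 148.6 and 151.4 TPM with Amuc_0904. Replicate 1 was again inside the control range, and replicates 2 and 3 were on average 18.1% above the control mean. Over 6 libraries the log2 fold change of *KRT20* was 0.16 (95% interval −0.0098 to 0.33, adjusted p = 0.337), and it was 0.10 with quantile normalization.

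*KRT20* has a single start among its coding transcripts in GENCODE, at 40885227. Of the members, only *KRT20* and *KRT8* had a promoter sequence at hand, and that of *KRT20* is shown. The window runs from 250 bases before to 50 bases after the RefSeq start, at chr17:40885193-40885492 on the minus strand (GRCh38.p14). The RefSeq start lies upstream of the GENCODE start. Both strands were searched for 4 motifs. The first was TATAAA, the box that binds the general initiation factor TBP. The second was CATAAA, which is bound by caudal-type homeodomain proteins such as CDX2. The others were CACCC, a box bound by proteins of the KLF family, and TGANTCA, the element bound by AP-1. Capitals mark the matches, which do not overlap.
KRT20 promoter: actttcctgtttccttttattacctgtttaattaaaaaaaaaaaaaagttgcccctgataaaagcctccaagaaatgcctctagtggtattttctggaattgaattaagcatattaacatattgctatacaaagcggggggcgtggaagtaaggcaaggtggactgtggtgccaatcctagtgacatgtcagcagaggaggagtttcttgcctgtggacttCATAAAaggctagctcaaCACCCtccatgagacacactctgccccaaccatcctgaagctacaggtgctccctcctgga

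CATAAA was found once, from position −29 relative to the RefSeq start, and CACCC once, from position −11. TATAAA and TGANTCA were not in this window. Of 35116 promoters of this length, 10.6% held CATAAA, 59.9% CACCC, 11.5% TATAAA and 7.71% TGANTCA. The RefSeq window for *KRT8* belongs to the start at 52926469, which is 1 of 9 annotated start positions of its coding transcripts. That window held CACCC at 2 places and none of the other 3 motifs, and as gene-level TPM does not show which start was used, its sequence is not given.

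The less abundant members showed no shared direction. *KRT80*, a type II keratin of differentiating epithelia, had 27.2, 27.0 and 25.2 TPM in the controls and 25.7, 23.5 and 24.3 TPM with Amuc_0904. Replicates 2 and 3 lay below the 3 controls, and replicate 1 did not (log2 fold change −0.11, 95% interval −0.25 to 0.04, adjusted p = 0.431). *KRT23*, a type I keratin, had 6.79, 8.51 and 8.54 TPM in the controls and 8.11, 8.35 and 9.16 TPM with Amuc_0904 (log2 fold change 0.10, adjusted p = 0.683). Control replicate 1 was the lowest of the 6 libraries for *KRT23*, and without it the log2 fold change was 0.00070. *KRT7*, a type II keratin of glandular ducts, had 8.84, 4.62 and 6.0 TPM in the controls and 4.73, 6.56 and 6.70 TPM with Amuc_0904. Control replicate 1 was the highest of the 6 libraries for *KRT7*, and the log2 fold change of −0.07 (95% interval −0.58 to 0.44, adjusted p = 0.900) was 0.14 without that library. *KRT17*, a type I keratin induced in stressed and wounded epithelium, had 1.71, 1.79 and 1.14 TPM in the controls and 1.94, 1.53 and 1.96 TPM with Amuc_0904 (log2 fold change 0.15, adjusted p = 0.668). It was 0.03 without Control replicate 3. For *KRT7* and *KRT17* the intervals are wide, and differences of 0.4 in either direction for *KRT7*, or upward for *KRT17*, lie within them.

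**Figure D2:**
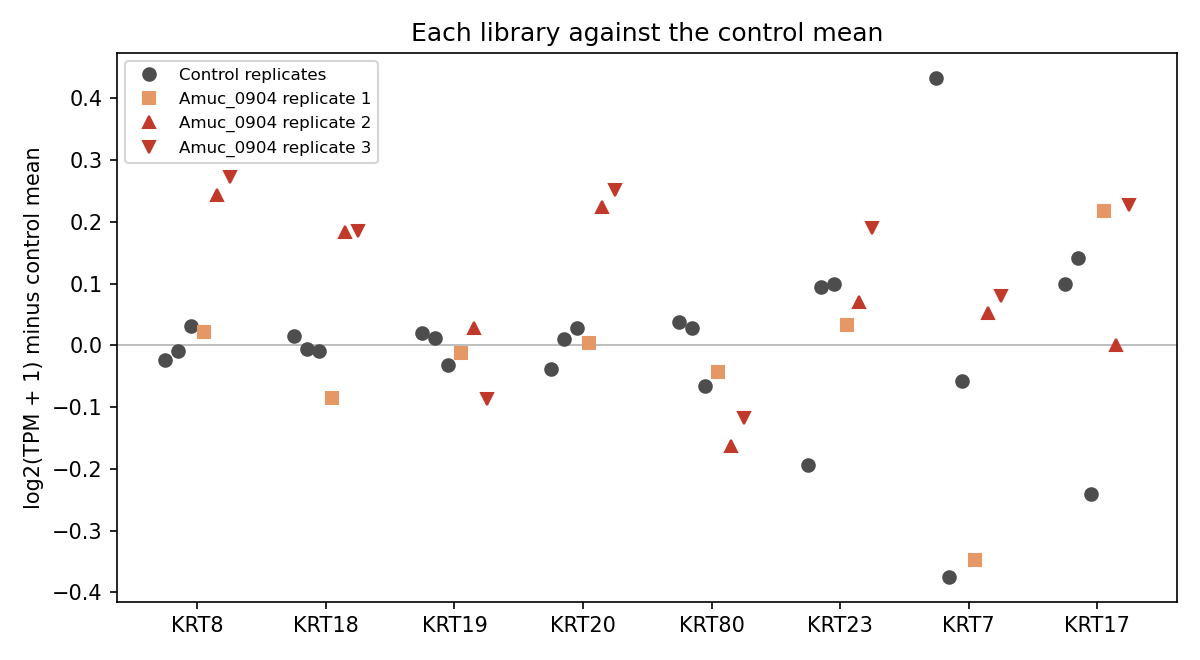
Difference of each library from the control mean on the log2(TPM + 1) scale for 8 keratin genes, ordered by level (gray circles, Control; orange square, Amuc_0904 replicate 1; red triangles pointing up and down, replicates 2 and 3). For *KRT8*, *KRT18* and *KRT20* replicates 2 and 3 lie from 0.18 to 0.27 above the control mean, while replicate 1 lies between −0.08 and 0.02.

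Leaving out Amuc_0904 replicate 1 changed the calls. Without it, *KRT8*, *KRT18* and *KRT20* rose and 0 members fell, so that 3 of 8 passed, where 18.8% of all tested genes passed in the same fit. The log2 fold change of *KRT8* was then 0.26 (95% interval 0.20 to 0.31, adjusted p = 0.00207 from limma). That of *KRT18* was 0.18 (95% interval 0.14 to 0.23, adjusted p = 0.00282), and that of *KRT20* was 0.24 (95% interval 0.16 to 0.32, adjusted p = 0.00704). *KRT80* was lower by −0.14 (95% interval −0.27 to −0.0056, unadjusted p = 0.0435 and adjusted p = 0.132 from limma). In 4 of the 8 members, Amuc_0904 replicates 2 and 3 both lay outside the control range on the same side, above it for 3 and below it for *KRT80*. Over all tested genes that share was 51.2%, close to the share among the keratins. Array weights, which gave Amuc_0904 replicate 1 a weight of 0.224, led to the same 3 calls, where 2371 of 14333 tested genes passed. Without Amuc_0904 replicate 2 or replicate 3, 0 members passed, and the log2 fold change of *KRT18* was 0.05 in both.

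**Figure D3:**
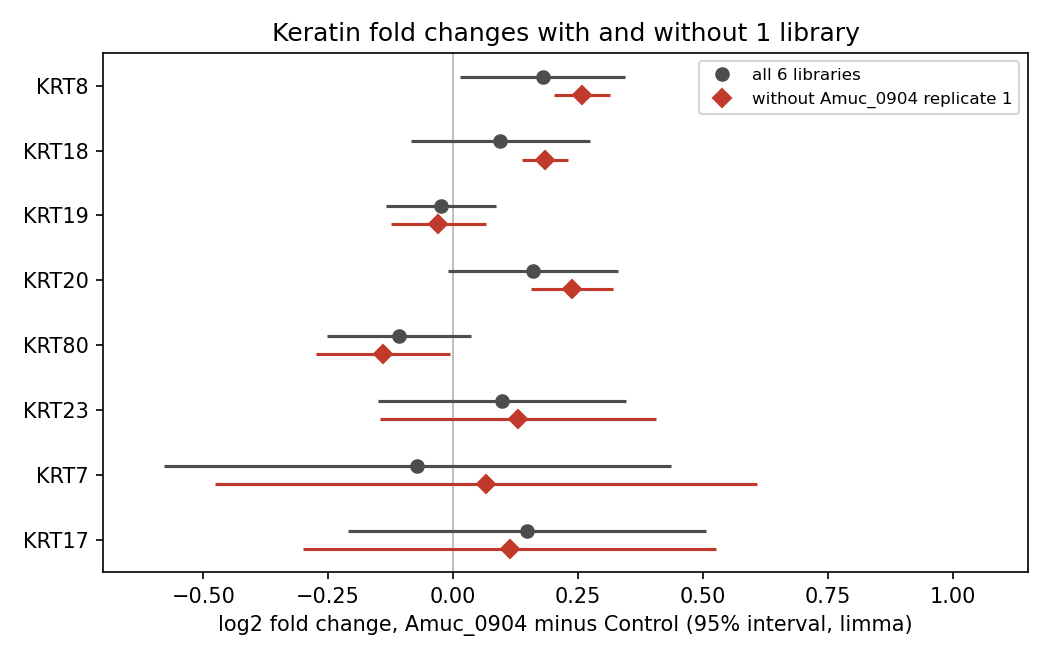
Log2 fold change of 8 keratin genes, Amuc_0904 minus Control, with 95% intervals from limma (gray circles, all 6 libraries; red diamonds, without Amuc_0904 replicate 1). The red intervals of *KRT8*, *KRT18* and *KRT20* narrow and lie above 0, at 0.20 to 0.31, 0.14 to 0.23 and 0.16 to 0.32.

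Summed over the 8 genes, keratin transcripts took 0.565%, 0.565% and 0.569% of TPM in the controls and 0.558%, 0.647% and 0.647% in Amuc_0904 replicates 1, 2 and 3. As a mean the sum was 5662 ± 25.3 TPM without and 6174 ± 512.4 TPM with treatment (SD, n = 3), and replicate 1 lay below the controls while replicates 2 and 3 lay above. In bulk RNA, more cells that use a gene and more RNA per cell cannot be told apart. The balance between the types gave a different order of libraries. Type I TPM divided by type II TPM was 1.08, 1.06 and 1.02 in the controls and 0.996, 0.985 and 0.949 with Amuc_0904, so that the 3 treated libraries, replicate 1 included, lay below the 3 controls. The ratio of *KRT18* to *KRT8* was 0.741, 0.723 and 0.701 in the controls and 0.670, 0.692 and 0.679 with Amuc_0904, again without overlap. The mean ratio of the types was 1.05 ± 0.0292 in control cells and 0.977 ± 0.0248 with Amuc_0904 (SD, n = 3). The ratios were formed from genes chosen with their values in view, and they are given without a test. They do not depend on the scaling factor of a library, but they do depend on how reads of the *KRT8* and *KRT18* overlap were assigned, which was not tested.

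**Figure D4:**
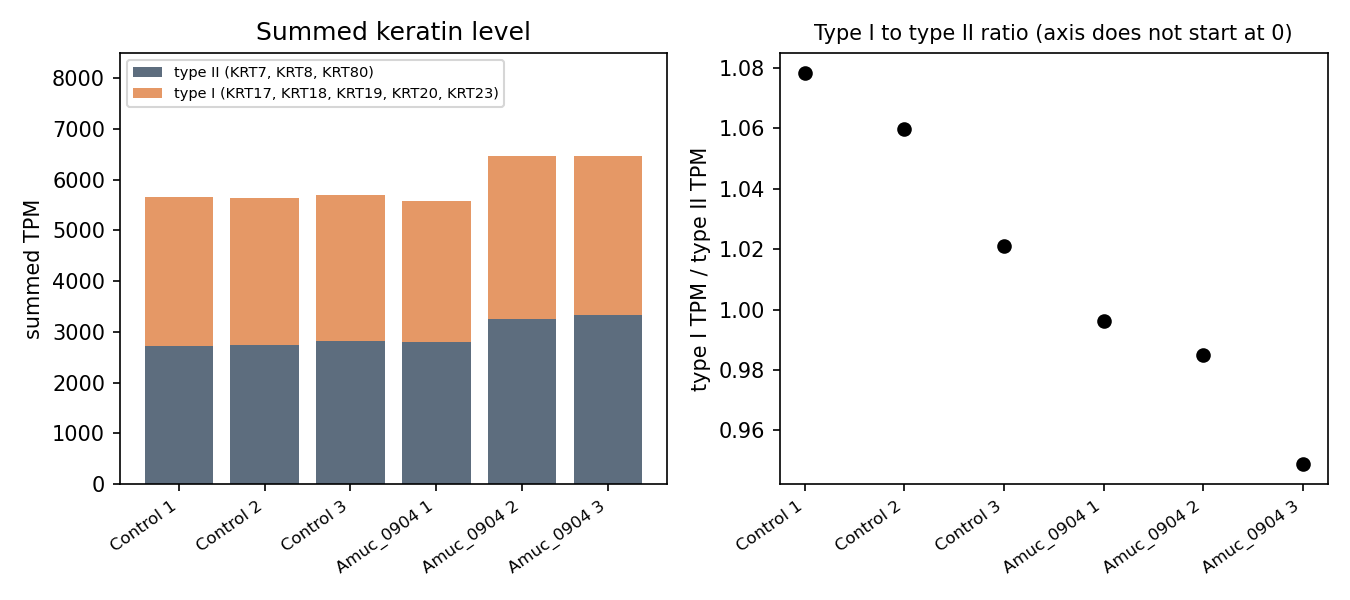
Left, summed TPM of the 3 type II (lower part of each bar) and 5 type I keratin genes (upper part) in each of 6 libraries. Right, type I TPM divided by type II TPM per library, which is 1.02 to 1.08 in the controls and 0.949 to 0.996 with Amuc_0904; its axis does not start at 0.

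The rest of the keratin family was nearly silent in these cells. Of 24 other type I keratin genes, 4 were tested and 16 were listed at 0 in the 6 libraries. Of 23 other type II genes, 0 were tested, 17 were listed at 0, and the highest value in any library was 0.48 TPM. Of the type II keratins listed, *KRT8*, *KRT80* and *KRT7* were thus the ones above 1 TPM. Of the 4 tested type I genes, limma called 0 up and 0 down, with a median log2 fold change of −0.07. By unadjusted p 1 was higher and 0 lower, against 15.8% of all tested genes in either direction. *KRT13*, a type I keratin of non-cornified stratified epithelia, had 3.95, 4.09 and 4.20 TPM in the controls and 4.66, 7.56 and 8.93 TPM with Amuc_0904, so that each treated library was above each control. Its log2 fold change was 0.63 (standard error 0.20, adjusted p = 0.249 from limma). Without Amuc_0904 replicate 1 it was 0.86, and *KRT13* passed (adjusted p = 0.00365 from limma), as did 18.8% of all tested genes. *KRT15*, a keratin of basal cells, and *KRT40*, a hair keratin, differed by −0.15 and −0.19 on the log2 scale, with adjusted p = 0.606 and 0.584.

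No gene that anchors keratin filaments passed the test, and their means differed in both directions. Of 18 such genes, 16 were tested, limma called 0 up and 0 down, and their median log2 fold change was −0.06. The unadjusted p was below 0.05 for 0 higher and 1 lower gene, against 15.8% of all tested genes in either direction. Means were lower for 9 and higher for 7. *JUP*, which encodes plakoglobin of the desmosome, had means of 114.6 ± 1.18 without and 115.0 ± 3.31 TPM with treatment (SD, n = 3), and the sign of its small difference depended on the scaling. *DSP*, which links keratin to desmosomes, had 11.7 ± 0.202 and 11.3 ± 1.39 TPM. *PLEC*, the linker of keratin to hemidesmosomes, had 15.3 ± 0.787 and 13.7 ± 1.32 TPM, a log2 difference of −0.15 with adjusted p = 0.431. The lowest p belonged to *DSC2*, a desmosomal cadherin, with 6.52, 6.24 and 5.77 TPM in the controls and 5.33, 4.81 and 5.12 TPM with Amuc_0904 (log2 fold change −0.24, adjusted p = 0.281). *ITGA6* and *ITGB4*, the integrin chains of hemidesmosomes, differed by −0.15 and −0.14 on the log2 scale, with adjusted p = 0.363 and 0.420. Without Amuc_0904 replicate 1, 0 of the 16 passed by limma, where 18.8% of all tested genes passed. In that fit 11 of the 16 had lower means. Their median log2 fold change was −0.11, against −0.028 over all tested genes.

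Of 19 genes for kinases, chaperones, proteases and other proteins that act on or bind keratins, 19 were tested, and limma called 0 up and 0 down. Their median log2 fold change was −0.012. The unadjusted p was below 0.05 for 2 higher genes and 1 lower gene, against 15.8% of all tested genes in either direction. *TGM2*, a transglutaminase that cross-links proteins, had 98.2, 100.2 and 96.7 TPM in the controls and 79.3, 66.2 and 64.2 TPM with Amuc_0904. All 3 treated libraries lay below the controls, with a log2 fold change of −0.49 (standard error 0.08, adjusted p = 0.111 from limma). *SFN*, a 14-3-3 protein of epithelia, had 74.1, 69.5 and 78.5 TPM in the controls and 78.1, 86.8 and 88.5 TPM with Amuc_0904 (log2 fold change 0.19, adjusted p = 0.281). Without Amuc_0904 replicate 1, *TGM2* fell by limma (adjusted p = 7.04e-04), and *SFN* rose (adjusted p = 0.0312). *YWHAZ*, another 14-3-3 gene that was named after its values were seen, rose too (adjusted p = 0.0325). In that fit 18.8% of all tested genes passed.

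Other intermediate filament genes were mostly those of the nuclear lamina. Of 16 genes, 4 were tested, and limma called 0 up and 0 down, with a median log2 fold change of 0.13. The unadjusted p was below 0.05 for 1 higher gene and 0 lower, against 15.8% of all tested genes in either direction. *VIM*, the filament of mesenchymal cells, had 0.11 to 0.55 TPM in the 6 libraries and was too low to test. *LMNB1*, a B-type lamin, had 100.9, 106.4 and 102.3 TPM in the controls and 109.8, 127.0 and 127.0 TPM with Amuc_0904 (log2 fold change 0.23, adjusted p = 0.242). *LMNB2* and *LMNA* differed by 0.15 and 0.12 on the log2 scale, with adjusted p = 0.480 and 0.398. Without Amuc_0904 replicate 1, *LMNB1* and *LMNB2* rose (adjusted p = 0.00419 and 0.0124 by limma), where 18.8% of all tested genes passed.

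**Figure D5:**
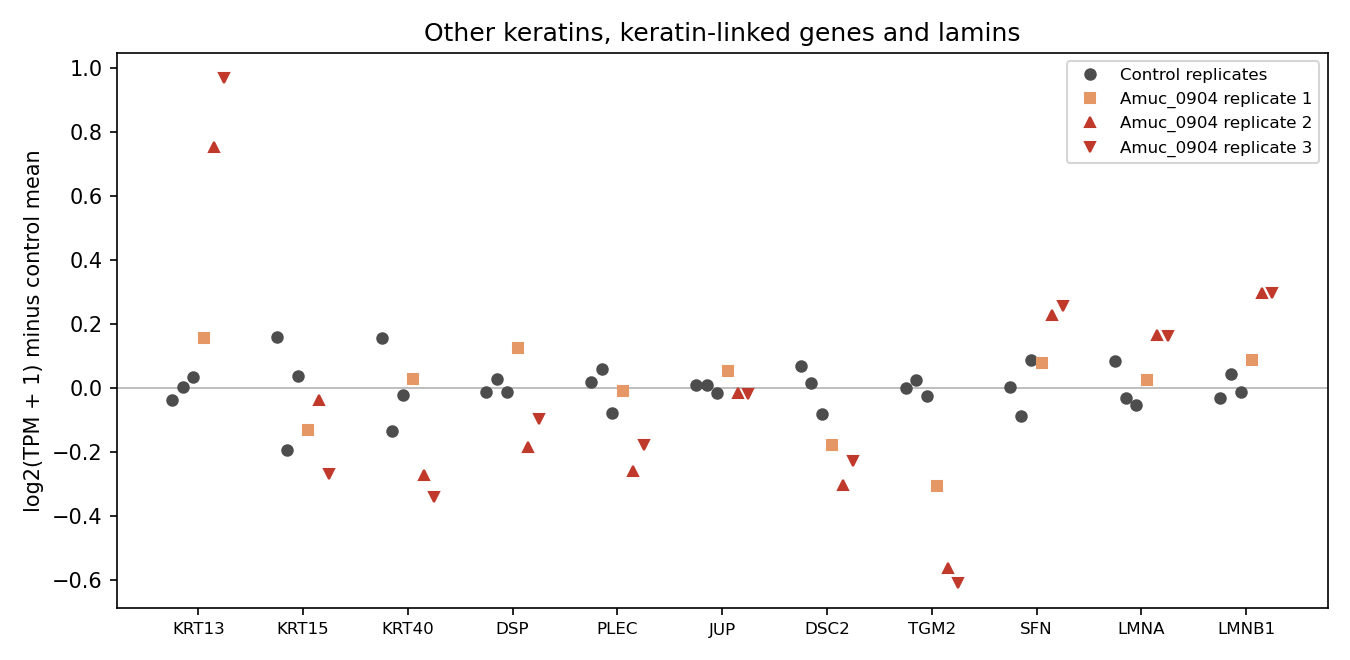
Difference of each library from the control mean on the log2(TPM + 1) scale for other type I keratins, keratin anchors, keratin-binding proteins and lamins (gray circles, Control; orange square, Amuc_0904 replicate 1; red triangles pointing up and down, replicates 2 and 3). *KRT13* lies above the controls and *TGM2* below them in the 3 treated libraries, while *JUP* stays near 0.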

How the data were processed

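The deposited table holds TPM, transcript abundance scaled by length and library total, for 63241 genes in 6 HT-29 libraries. Per the labels and the series text, the authors trimmed reads with SeqPrep and Sickle, aligned them with HISAT2 and assembled them with StringTie, and RSEM and edgeR are also listed, without versions. The labels name the mouse build GRCm38.p6, but the gene identifiers are human Ensembl genes, so the build behind the values is unsure. Another 25 lines carry description text without a gene identifier and were dropped.

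Of these, 14333 genes reached 1 TPM in 3 or more libraries. Their log2(TPM + 1), a scale that understates changes of low genes, was fitted on condition alone in limma 3.58.1 (R 4.3.3), with eBayes set to trend and robust, and Benjamini-Hochberg adjustment covered all of them. With 3 libraries against 3, exact permutation cannot pass 0.05, so none is given. The steps were tested on simulated data that gave both groups the spread of the controls and held no outlying library.

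The members and lists were chosen with earlier results of these data known. Named genes are the 8 members, *VIM*, *DSP*, *PLEC*, *JUP*, the 3 genes of smallest p in each related list and any past the adjusted p, the 3 highest keratin pseudogenes, and the 5 genes most like the member of smallest p. One gene that this rule names is not reported here. Replicate numbers were not used to pair the libraries in the main fit. Alternatives changed the pseudocount, filter, weights, block, scaling and libraries used.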

Additional observations from a re-analysis of the deposited data

How the results depend on the processing

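Over all alternatives run, *KRT8*, *KRT17*, *KRT18*, *KRT20*, *KRT23* and *KRT80* kept their direction, though *KRT23* came to 0.00070 without Control replicate 1. With array weights 3 keratin members passed (*KRT8* 0.24, *KRT18* 0.16, *KRT20* 0.22 on the log2 scale), as did 1 other type I keratin, 1 higher and 1 lower gene of the kinase, chaperone and protease list and 2 other intermediate filament genes, and *KRT7* turned to 0.042. In that fit 2371 of 14333 tested genes passed. Leaving out each library in turn, 0 to 3 members rose, 0 to 1 other type I keratins, 0 to 2 genes of the kinase list (0 to 1 fell) and 0 to 2 other filament genes. Over all tested genes, 9 to 2640 passed in these fits, the most without Amuc_0904 replicate 1. The log2 fold change then went from 0.13 to 0.26 for *KRT8*, 0.049 to 0.18 for *KRT18*, 0.11 to 0.24 for *KRT20*, −0.26 to 0.14 for *KRT7*, −0.049 to 0.0083 for *KRT19*, −0.14 to 0.014 for *DSP* and −0.018 to 0.018 for *JUP*. The *JUP* value was −0.013 with array weights, −0.033 with quantile normalization and −0.019 with TPM rescaled without mitochondrial transcripts, an alternative added with the data in view, under which *KRT8* had 0.15 and *KRT18* 0.07. The cause of these shifts was not tested.

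Same-numbered libraries did not deviate together from their group means (Pearson r across genes 0.05, −0.04 and −0.0047). With Amuc_0904 replicate 1 far from the rest of its group, these values cannot decide whether libraries were prepared in pairs. With a replicate block 0 members passed (*KRT8* adjusted p = 0.334 by limma) and 21 genes in all passed against 34 without it. Over all genes, 2640 passed without Amuc_0904 replicate 1 and 2371 with array weights.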

Other observations

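The genes whose levels were most like those of *KRT8*, by Pearson r of log2(TPM + 1) over the 6 libraries, were *PRDX6*, a peroxiredoxin, *CCT2*, a subunit of the cytosolic chaperonin, *PARP1*, a DNA repair enzyme, *REXO2*, an oligoribonuclease, and *RRP1B*, a nucleolar protein, each with r of 0.997 to 0.999. These are descriptions over few libraries that fall into clusters, and many genes share this pattern. *PRDX6* had 132.9, 132.3 and 139.7 TPM in the controls and 139.9, 178.9 and 184.8 TPM in Amuc_0904 replicates 1, 2 and 3 (log2 fold change 0.30, adjusted p = 0.262 by limma, and 0.43 with adjusted p = 0.00185 without replicate 1). *CCT2* had 210.6, 209.3 and 217.2 TPM in the controls and 216.0, 265.5 and 269.0 TPM with Amuc_0904 (log2 fold change 0.23, adjusted p = 0.283 by limma, and 0.33 with adjusted p = 0.00189 without replicate 1). *PARP1*, *REXO2* and *RRP1B* also passed only without replicate 1 (adjusted p = 0.00292, 0.00375 and 0.0458 by limma, against 0.273, 0.273 and 0.375 over 6 libraries). In *PRDX6* and *CCT2*, as in *KRT8*, Amuc_0904 replicate 1 lay at or near the control range and replicates 2 and 3 above it. All of these genes were picked for their likeness to *KRT8* over the same libraries, so the shared pattern follows from the choice. Without replicate 1, 18.8% of all tested genes passed by limma.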
